A study of Mus musculus with 24 samples.

Results

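The 10 genes described here, Tor1a, Tor1aip1, Sgce, Gnal, Gch1, Prkra, Hpca, Tubb4a, Ciz1 and Slc2a1, are mouse counterparts of human genes that have been linked to inherited dystonia or a related movement disorder, apart from THAP1 itself. Every probe whose array annotation carried one of these symbols was taken, which gave 14 probes of 25697 on the array (10 of 16593 named genes), and each probe was kept apart. Of the 14, 10 probes of 9 genes passed the detection filter (a detection p under 0.01 on at least 4 of 24 arrays), which kept 14994 of all probes. Their mRNA was measured in the brain of THAP1 knockout (KO) mice and control mice at postnatal day 21.

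Dystonia is a disorder of sustained or intermittent muscle contractions, and circuits of the striatum, cortex and cerebellum are studied in it. The genes act at different points in the cell. TorsinA, made from Tor1a, is an ATPase in the lumen of the nuclear envelope and the endoplasmic reticulum, and LAP1, made from Tor1aip1, is the nuclear envelope protein that activates it. Epsilon-sarcoglycan (Sgce) belongs to the dystrophin-associated complex at the plasma membrane. Gnal encodes the G protein alpha subunit Golf, which couples dopamine and adenosine receptors of striatal neurons to adenylyl cyclase, and Gch1 encodes GTP cyclohydrolase, the first and rate-limiting enzyme of tetrahydrobiopterin synthesis, which dopamine synthesis needs. PACT (Prkra) binds double-stranded RNA and activates the kinase PKR, hippocalcin (Hpca) is a neuronal calcium sensor, and Tubb4a is a beta-tubulin of neurons and oligodendrocytes. CIZ1 (Ciz1) takes part in the start of DNA replication, and GLUT1 (Slc2a1) carries glucose across the blood-brain barrier.

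The arrays form 6 groups of 4, with a Nestin THAP1 KO group and a Nestin control group for each of cerebellum, cortex and striatum. The design text names 4 conditional knockout mice and 4 wild-type mice, while the sample labels write Nestin for controls too, and neither gives the Cre line, the floxed allele, the strain or the deleted part of Thap1. Which mouse each array came from is not labelled, so p-values measure the spread between arrays, and if the 4 mice of a genotype supplied its 12 arrays, arrays of different regions share mice. Nestin is a gene of neural progenitors, and a deletion driven from its promoter is not aimed at blood vessel or blood cells, which share the tissue samples. The mean raw signal was between 287 and 570 per array, 47.2 to 54.5% of probes were detected on an array, and precision is limited by having 4 arrays a group. Markers of each region were highest in the region of that label on all 24 arrays. The striatal markers were also high in cortex, with control means of 8.98 in cortex, 10.23 in striatum and 6.15 in cerebellum. Whether the cortex samples held striatal tissue was not tested. The 3 Thap1 probes did not move alike: ILMN_2603593 was detected on 0 of 4 KO arrays in every region, against 2 to 4 control arrays. ILMN_2907066, near background, was lower in KO by -0.43, -0.47 and -0.43 in cerebellum, cortex and striatum (adjusted p by limma 0.277 to 0.823). ILMN_1258989 was higher in KO by 1.12, 0.82 and 0.39 on the log2 scale in these regions (adjusted p 0.0152, 0.0935 and 0.790). Averaged over the regions, the limma difference was -0.71 for ILMN_2603593 (adjusted p = 5.89e-05) and -0.44 for ILMN_2907066 (adjusted p = 0.0121). For ILMN_1258989 this mean was 0.78 (adjusted p = 0.000429). The labels do not say where the Thap1 probes lie relative to the deletion. In whole tissue, fewer cells of a type and less RNA per cell cannot be told apart.

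THAP1 binds DNA through its zinc finger at a sequence with a GGCA core, and the human TOR1A promoter has been described as one of its targets. The letters TNNGGGCA were therefore searched on both strands in the 250 bases before start sites that RefSeq gives for these genes on GRCm38.p6. Start sites on some chromosomes were left out for these genes, but not for the mouse promoters they are set against. Of the 10 genes, 8 had entries that were used, 12 in all, and 2 of the 12 (16.7%) held the letters, against 3900 of 32851 mouse promoters (11.9%). The promoter of Tor1a and 1 of the 3 of Hpca held them, and they are printed with that of Tubb4a, the gene with the smallest unadjusted p between KO and control. Each is written 5′ to 3′ on the strand of its gene, with the match in capitals, which in both cases reads in the opposite direction. The match begins 97 bases before the Tor1a start site and 11 bases before the Hpca start site, and Tubb4a has none in this window. A match is a description of letters and does not show binding.

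Tor1a, chr2:30967919-30968168, minus strand: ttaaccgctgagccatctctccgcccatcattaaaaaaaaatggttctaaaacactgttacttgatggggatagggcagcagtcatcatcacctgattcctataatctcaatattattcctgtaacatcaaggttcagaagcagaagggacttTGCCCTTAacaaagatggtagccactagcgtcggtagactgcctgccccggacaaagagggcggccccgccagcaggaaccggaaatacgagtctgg

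Hpca, chr4:129120173-129120422, minus strand: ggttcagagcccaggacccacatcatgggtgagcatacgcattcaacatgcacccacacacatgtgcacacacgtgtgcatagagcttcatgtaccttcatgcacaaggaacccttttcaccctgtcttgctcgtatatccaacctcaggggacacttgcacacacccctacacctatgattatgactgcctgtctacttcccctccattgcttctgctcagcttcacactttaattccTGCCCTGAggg

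Tubb4a, chr17:57087601-57087850, minus strand: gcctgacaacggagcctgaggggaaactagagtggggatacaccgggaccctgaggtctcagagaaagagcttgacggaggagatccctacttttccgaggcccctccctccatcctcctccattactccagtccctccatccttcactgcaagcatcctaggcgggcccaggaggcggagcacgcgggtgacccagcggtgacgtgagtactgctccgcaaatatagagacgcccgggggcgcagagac

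Detection came before any comparison. Of the probes that passed the filter, 8 were detected on all 24 arrays, Gch1 ILMN_2606295 on 23 and Gnal ILMN_2739195 on 8. The other 4 probes were not used in any test. Sgce ILMN_2648265, the only Sgce probe, was detected on 0 of 24 arrays, with log2 intensities of 4.14 to 4.40, so the array gives no measurement of Sgce in any group. Gnal ILMN_3036452 and Gch1 ILMN_2753029 were also detected on 0 of 24 arrays, and Ciz1 ILMN_2760080 on 1, a striatum KO array. The Gnal probes are annotated to different transcripts.

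The plot of all 10 probes by array shows the level of each in the 6 groups. Levels of different probes are not compared, since probes differ in how brightly they bind.

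**Figure D1:**
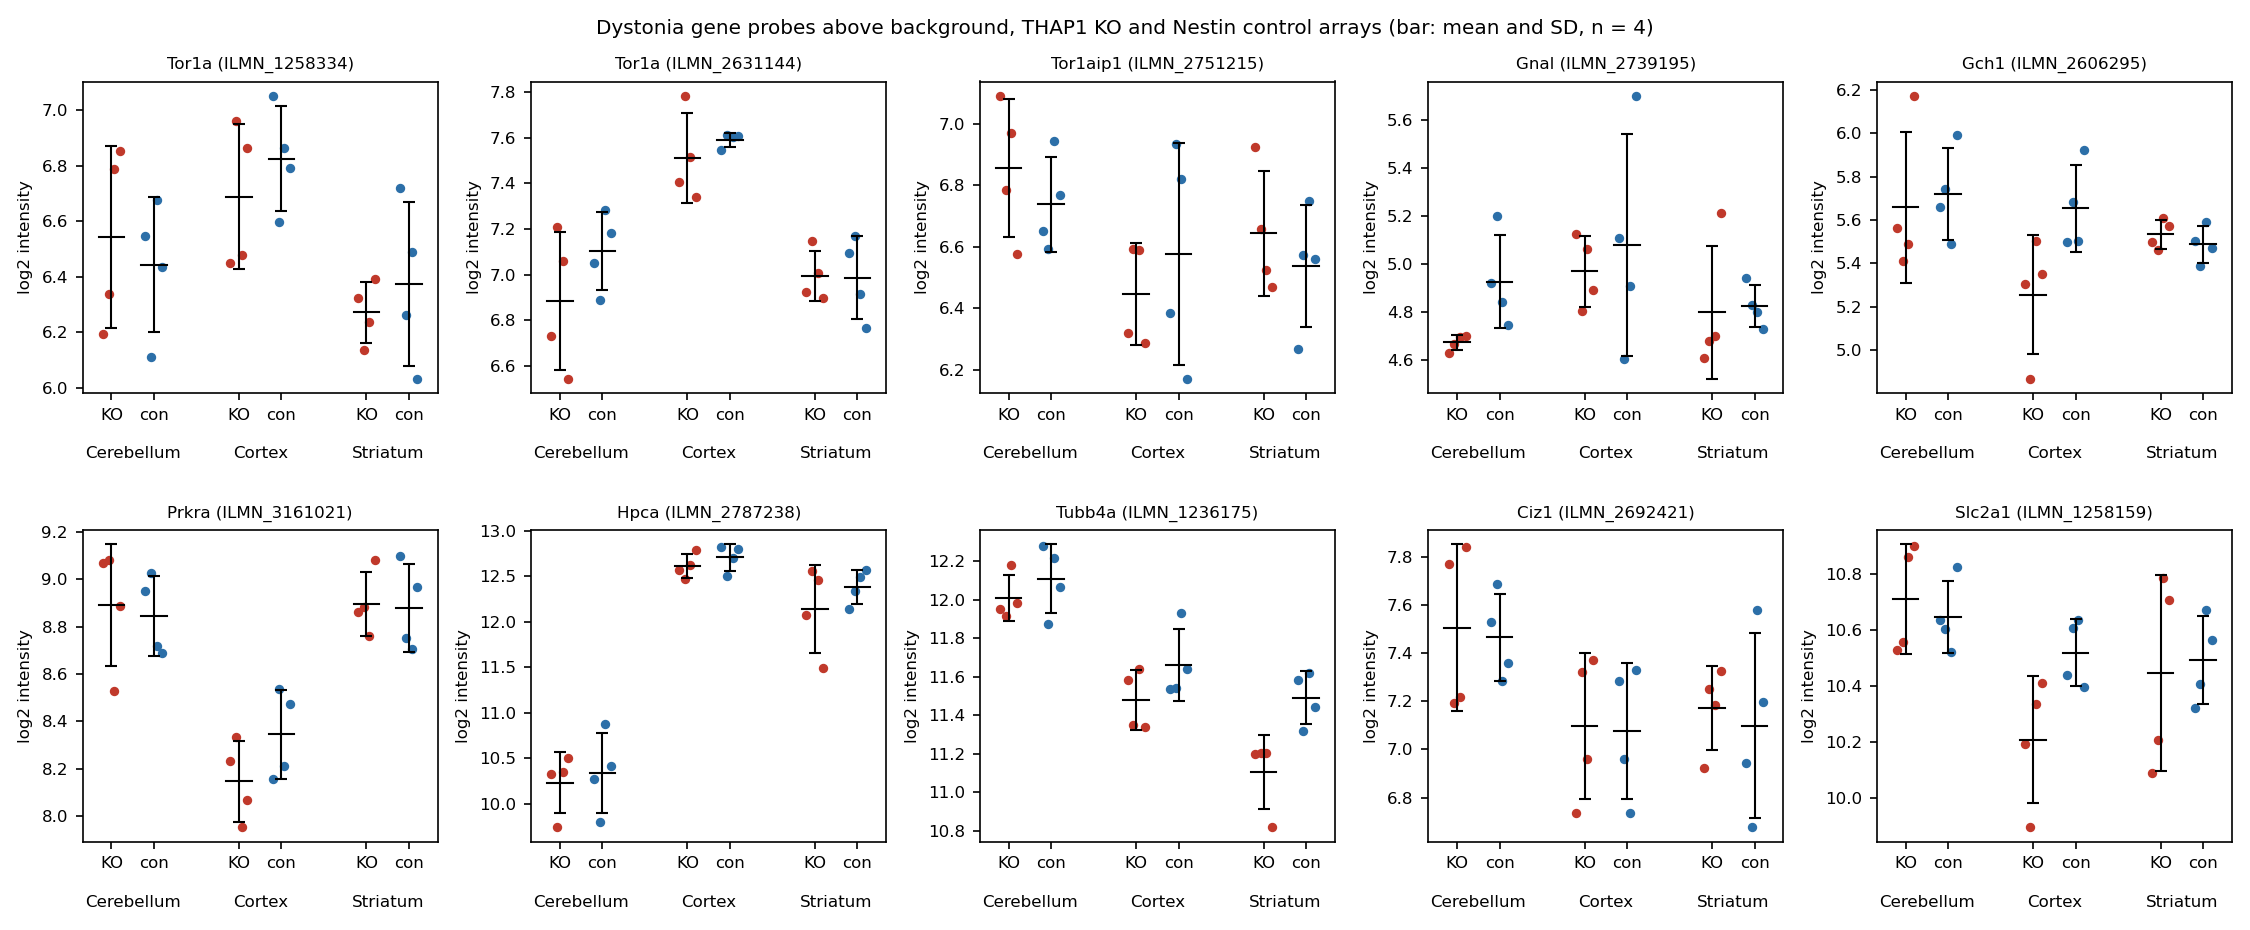
Log2 intensity (background-corrected and quantile normalized) of the 10 probes that passed the detection filter, one panel for each, with the 4 KO arrays in red left of the 4 control arrays in blue in cerebellum, cortex and striatum. Points are arrays, bars are mean and SD, and each panel has its own vertical scale. Hpca lies between 9.74 and 10.87 on the 8 cerebellum arrays and between 11.49 and 12.82 on the others.

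In control brains, 4 of the 10 probes differed between at least 1 pair of regions at an adjusted p under 0.05. Of all tested probes 57.7% did. These were Hpca, Tubb4a, Prkra and Tor1a ILMN_2631144. Differences are on a scale of log2 intensity with an offset of 16 added, which understates those of dim probes, and adjusted p-values come from limma with Benjamini-Hochberg adjustment over 14994 probes. Between cerebellum and cortex 4 of 10 passed (43.2% of all probes), between cerebellum and striatum 2 of 10 (38.5%), and between cortex and striatum 2 of 10 (27.1%). Counts of 4, 2 and 2 among 10 probes are too small to set these genes apart from all probes. Among all probes, 22.7% were higher and 20.5% lower in cerebellum than in cortex, 19.7% higher and 18.9% lower in cerebellum than in striatum, and 12.6% higher and 14.5% lower in cortex than in striatum. For comparison, 10 lists of genes related to the members (partners, pathway neighbours and further dystonia genes) held 202 tested probes of 136 genes, of which 51.5%, 45.5% and 34.7% passed in these pairs. These lists are described beside the member they belong to, by counts of probes past the threshold.

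Hpca had the largest differences. Its log2 intensities were 10.27, 9.80, 10.87 and 10.42 on the control cerebellum arrays, 12.82, 12.50, 12.71 and 12.80 on the control cortex arrays, and 12.14, 12.34, 12.49 and 12.57 on the control striatum arrays. All cerebellum arrays lay below all arrays of the other regions, while cortex and striatum overlapped. The mean was 10.34 ± 0.443 in cerebellum, 12.71 ± 0.146 in cortex and 12.39 ± 0.188 in striatum (SD, n = 4 each). Hippocalcin mRNA was therefore lower in cerebellum than in cortex by a log2 difference of -2.37 (SE 0.19, 0.193-fold, adjusted p = 2.42e-11) and lower than in striatum by -2.05 (SE 0.19, 0.242-fold, adjusted p = 5.11e-10). Cortex and striatum differed by 0.32 (95% interval -0.07 to 0.72, adjusted p = 0.231).

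The other neuronal calcium sensors and calmodulins did not share one regional pattern. Of 16 probes of 11 genes, 4 were higher and 5 lower in cerebellum than in cortex, and 5 were higher and 7 lower in cerebellum than in striatum. Hpcal4, a close relative of hippocalcin, averaged 8.34 in cerebellum and 12.18 in cortex (difference -3.84, adjusted p = 6.73e-19). Hpcal1, another relative, ran the other way, at 9.86 in cerebellum and 7.21 in cortex (2.64, adjusted p = 8.98e-13). Kcnip2, a calcium-binding subunit of potassium channels, was read by ILMN_2680959 on no control cerebellum array and was at least 2.76-fold higher in cortex (adjusted p = 4.89e-11), a bound taken against the lowest signal of detected probes on each array. A further Kcnip2 probe, ILMN_3124037, averaged 5.19 in cerebellum and 7.73 in striatum (-2.54, adjusted p = 8.91e-12).

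Tubb4a was highest in cerebellum. Control arrays read 12.28, 11.88, 12.22 and 12.07 in cerebellum, 11.53, 11.54, 11.93 and 11.64 in cortex, and 11.58, 11.32, 11.62 and 11.45 in striatum. Every cerebellum array lay above every striatum array, and 1 cerebellum array lay below the highest cortex array. The difference of cerebellum from cortex was 0.45 (SE 0.11, 1.36-fold, adjusted p = 0.00186), and from striatum 0.62 (SE 0.11, 1.54-fold, adjusted p = 5.61e-05). The first of these ended under median scaling (0.29, adjusted p = 0.197). Cortex and striatum, the neighbours in this order, differed by 0.17 (95% interval -0.06 to 0.40, adjusted p = 0.290).

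Among tubulins, tubulin-folding cofactors and Mapt, 2 of 23 probes were higher and 10 lower in cerebellum than in cortex, and 4 were higher and 6 lower in cerebellum than in striatum. Tuba8, an alpha-tubulin, averaged 8.49 in cerebellum and 4.83 in striatum (3.66, adjusted p = 1.39e-14), the same direction as Tubb4a. Tubb2b, a beta-tubulin of developing neurons, was lower in cerebellum, at 12.00 against 13.16 in cortex (-1.16, adjusted p = 8.14e-09). The gamma-tubulin Tubg2 was also lower there (9.61 in cerebellum, 10.84 in cortex, -1.23, adjusted p = 5.57e-10). Tuba4a was higher in cortex, at 10.46, than in striatum, at 9.41 (1.05, adjusted p = 6.69e-08).

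Prkra was lowest in cortex. Its control arrays read 8.95, 9.03, 8.72 and 8.69 in cerebellum, 8.16, 8.54, 8.21 and 8.48 in cortex, and 9.10, 8.75, 8.70 and 8.97 in striatum. The cortex arrays lay below all arrays of the other regions, and cerebellum and striatum overlapped. Cerebellum was higher than cortex by 0.50 (SE 0.14, 1.41-fold, adjusted p = 0.00339), and cortex was lower than striatum by a difference of -0.53 (SE 0.14, 0.690-fold, adjusted p = 0.00356). Cerebellum and striatum differed by -0.03 (95% interval -0.31 to 0.24, adjusted p = 0.873).

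Partners of PACT in RNA interference and in the PKR pathway were measured by 18 probes of 12 genes. In cerebellum against cortex 5 were higher and 0 lower, and in cortex against striatum 0 were higher and 8 lower. Tarbp2, the RNA-binding protein closest to PACT, averaged 6.96 in cerebellum and 5.89 in cortex (1.07, adjusted p = 1.86e-06). Ago3, an Argonaute protein, was higher in cerebellum than in cortex on both named probes (1.27 and 1.23, adjusted p = 2.08e-07 and 2.46e-06). Adar, an enzyme that edits double-stranded RNA, averaged 8.51 in cerebellum and 9.29 in striatum (-0.78, adjusted p = 6.67e-06).

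Tor1a was highest in cortex on the probe that passed. ILMN_2631144 read 7.05, 6.89, 7.28 and 7.18 on the control cerebellum arrays, 7.55, 7.61, 7.60 and 7.61 on the control cortex arrays, and 7.10, 7.17, 6.92 and 6.77 on the control striatum arrays. The cortex arrays lay above all others, and cerebellum and striatum overlapped. Cerebellum was lower than cortex by a difference of -0.49 (SE 0.15, 0.713-fold, adjusted p = 0.00787), which ended under median scaling (-0.33, adjusted p = 0.169), and cortex was higher than striatum by 0.60 (SE 0.15, 1.52-fold, adjusted p = 0.00252). The second probe, ILMN_1258334, had differences in the same directions that did not pass, of -0.38 (95% interval -0.75 to -0.01, adjusted p = 0.0871) and 0.45 (0.08 to 0.82, adjusted p = 0.0629). Between cerebellum and striatum the probes differed by 0.12 and 0.07 (adjusted p = 0.586 and 0.811).

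Tor1aip1 did not pass in any pair of regions. It averaged 6.74 ± 0.154 in control cerebellum, 6.58 ± 0.361 in control cortex and 6.54 ± 0.199 in control striatum (SD, n = 4 each), with differences of 0.04 to 0.20 (adjusted p 0.385 to 0.897). Other genes of the torsins and the nuclear envelope did differ: of 23 probes of 14 genes, 7 were higher and 8 lower in cerebellum than in cortex. Syne1, a giant nuclear envelope protein of the LINC complex, averaged 7.62 in cerebellum and 11.06 in cortex (-3.44, adjusted p = 4.13e-17). Lbr, the lamin B receptor, was higher in cerebellum than in cortex by 0.84 (adjusted p = 1.57e-06), Lmnb2, a B-type lamin, by 1.28 (adjusted p = 1.17e-05), and Emd, emerin, was higher in cerebellum than in striatum by 1.14 (adjusted p = 3.96e-06).

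The tested Gnal probe was close to background in every region, so its values say little about the level of Gnal mRNA. Where the Gnal probes lie on their transcripts was not given. ILMN_2739195 was detected on 2 of 4 control arrays in cerebellum, 2 of 4 in cortex and 0 of 4 in striatum, the region where Golf signalling is best known. Control arrays read 4.92, 5.20, 4.84 and 4.75 in cerebellum, 5.11, 4.61, 4.91 and 5.70 in cortex, and 4.94, 4.83, 4.80 and 4.73 in striatum. The groups overlapped and did not differ at the threshold in any pair, with measured means of 5.08 in cortex and 4.83 in striatum (adjusted p = 0.315), and no control striatum array was above background.

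Of 17 other genes of striatal Golf and cyclic AMP signalling on the array, 14 had a tested probe. Of their 22 probes, 1 was higher and 15 were lower in cerebellum than in striatum, and 2 were higher and 11 lower in cortex than in striatum. Their median difference was -1.21 between cerebellum and striatum, against 0.03 over all probes. Drd1, the dopamine D1 receptor that acts through Golf, was not detected on any control cerebellum array and was at least 43.9-fold higher in striatum (measured means 4.57 in cerebellum and 10.37 in striatum, adjusted p = 5.70e-18). Gng7, the gamma subunit that partners Golf, averaged 7.78 in cerebellum and 12.73 in striatum on ILMN_3103233 (-4.95, adjusted p = 3.42e-19), while ILMN_3030009, near background, had measured means of 4.37 in cerebellum and 5.56 in striatum. Rgs9, a regulator of G protein signalling, averaged 4.83 and 11.93 (-7.10, adjusted p = 1.49e-21), with 1 control cerebellum array above background, and Pde1b, a phosphodiesterase, 9.35 and 12.75 (-3.40, adjusted p = 3.02e-16).

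Gch1 was dim and did not differ between control regions at the threshold. ILMN_2606295 averaged 5.72 ± 0.211 in cerebellum, 5.65 ± 0.20 in cortex and 5.49 ± 0.0846 in striatum (SD, n = 4 each), with differences of 0.07, 0.23 and 0.17 between cerebellum and cortex, cerebellum and striatum, and cortex and striatum (adjusted p 0.304 to 0.787). Of 13 probes of 11 genes of tetrahydrobiopterin and monoamine metabolism, 2 were higher and 4 lower in cerebellum than in cortex. Gchfr, the regulatory partner of GTP cyclohydrolase, was detected in control cerebellum and on no control cortex array, and was at least 3.38-fold higher in cerebellum (measured means 6.77 and 4.41, adjusted p = 1.55e-09). Ddc, the enzyme that makes dopamine from DOPA, was lower in cerebellum than in striatum by a difference of -1.42 (adjusted p = 6.76e-08). Tph2, the serotonin-synthesis enzyme of the brain, was at least 2.08-fold higher in cortex than in striatum (adjusted p = 1.54e-06), and Pcbd1, which regenerates tetrahydrobiopterin, was lower in cortex by -1.15 (adjusted p = 0.000193).

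Slc2a1 did not pass between any control regions. It averaged 10.65 ± 0.129 in cerebellum, 10.52 ± 0.120 in cortex and 10.49 ± 0.157 in striatum (SD, n = 4 each), and the largest difference, cerebellum minus striatum, was 0.15 (95% interval -0.13 to 0.44, adjusted p = 0.415). Genes of glucose transport and glycolysis differed more: of 30 probes of 21 genes, 5 were higher and 12 lower in cerebellum than in cortex, and 11 were higher and 0 lower in cortex than in striatum. Hexokinase 2 (Hk2) averaged 8.38 in cerebellum and 6.33 in striatum (2.06, adjusted p = 2.19e-11). Aldoc, the brain aldolase, was higher in cerebellum than in cortex by 0.98 (adjusted p = 8.09e-07), Tpi1, a glycolytic isomerase, was lower there by -1.61 (adjusted p = 1.25e-10), and the inositol transporter Slc2a13 was lower in cerebellum than in striatum by -1.64 (adjusted p = 3.74e-11).

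Ciz1 averaged 7.46 ± 0.180 in control cerebellum, 7.08 ± 0.281 in control cortex and 7.10 ± 0.384 in control striatum (SD, n = 4 each). The differences of cerebellum from cortex (0.39, adjusted p = 0.107) and from striatum (0.37, adjusted p = 0.141) did not pass. The first passed under median scaling (0.57, adjusted p = 0.0452) and the second without striatum control 3 (0.53, adjusted p = 0.0349). Among replication factors and partners of CIZ1, 6 of 16 probes were higher and 1 lower in cerebellum than in cortex, and 6 higher and 0 lower in cerebellum than in striatum. Cdkn1a, the cell-cycle inhibitor p21 to which CIZ1 binds, was higher in cerebellum than in striatum on both named probes (1.5 and 1.4, adjusted p = 6.92e-09 and 1.62e-06). Cyclin E2 (Ccne2) was higher in cerebellum than in striatum by 1.31 (adjusted p = 4.64e-07), and cyclin E1 (Ccne1) higher in cortex than in striatum by 1.03 (adjusted p = 0.00108).

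Sgce itself was not detected, but mRNA of other genes listed with its complex was. Of 15 probes of 10 genes of the sarcoglycan and dystrophin complex, 6 were higher and 2 lower in cerebellum than in cortex. Dtnb, beta-dystrobrevin, averaged 7.54 in cerebellum and 8.90 in cortex (-1.36, adjusted p = 9.82e-10), and Dtna, alpha-dystrobrevin, averaged 8.07 in cerebellum and 6.85 in striatum (1.23, adjusted p = 1.99e-06). Agrn, agrin, was lower in cerebellum than in striatum by -1.18 (adjusted p = 1.02e-08). Nos1, neuronal nitric oxide synthase, was on no control cortex array above background and was at least 1.56-fold higher in cerebellum (adjusted p = 4.59e-07).

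The plot of regional differences places the 10 probes side by side.

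**Figure D2:**
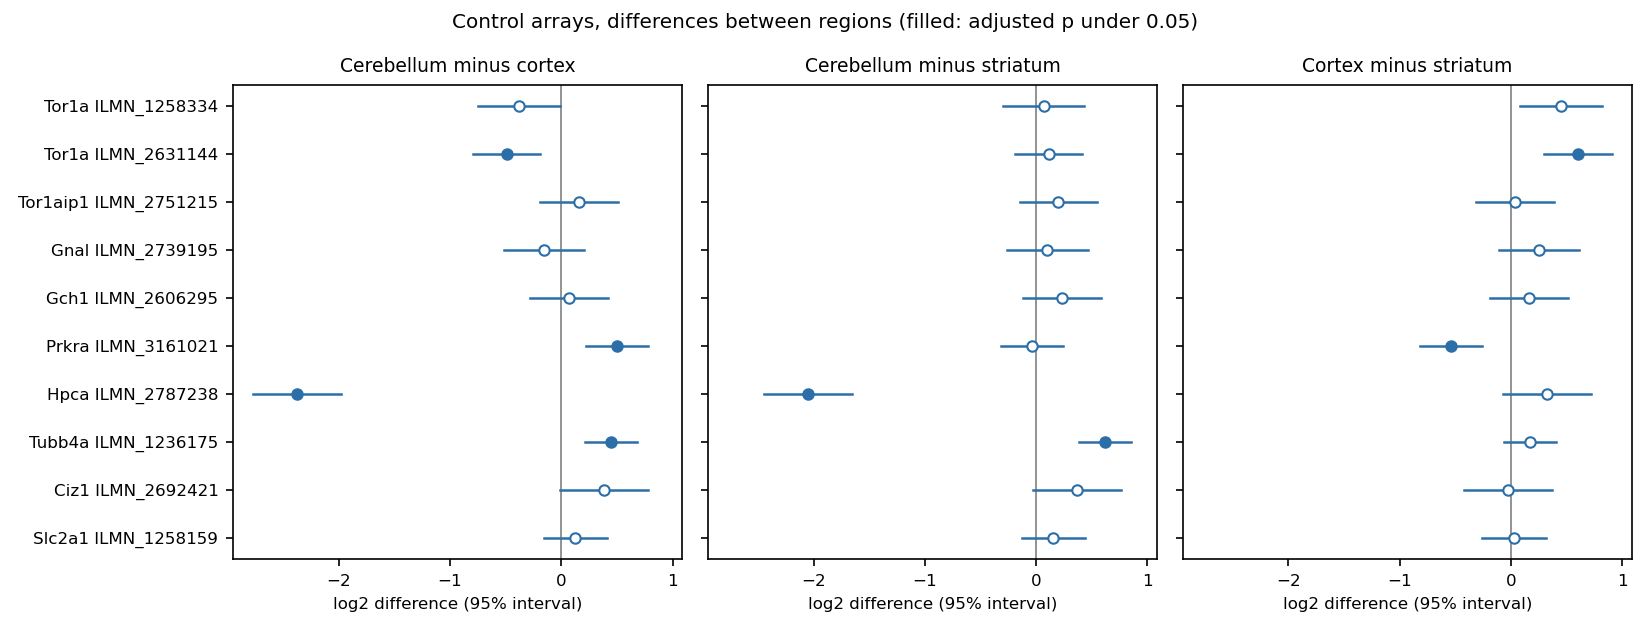
Differences between control regions in log2 intensity for the 10 probes (points, with 95% intervals), cerebellum minus cortex, cerebellum minus striatum and cortex minus striatum. Filled points passed an adjusted p of 0.05. Hpca stands at -2.37 and -2.05 in the first and second panels, and no other difference exceeds 0.62 in size.

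As a description, the named genes whose levels ran most like those of a member over the 12 control arrays were listed by Pearson's r. Taking the highest r among all other named genes over so few arrays makes it high by itself. Region differences shared by many genes also raise it for members that differ between regions. For Hpca they were Crip2 (0.989), Igfbp4 (0.987) and Ap1s1 (0.986). For Tubb4a they were Tbata (0.949), Nfic (0.942) and Car9 (0.937). For Tor1a ILMN_2631144 they were Mtx1 (0.957), Vti1a (0.951) and Vkorc1l1 (0.947), and for Prkra Smad5 (0.929), Rusf1 (0.922) and Ep400 (0.912). The highest r was between 0.874 and 0.909 for Tor1aip1 (Atxn2), Gnal (Eif3i), Gch1 (Sema3b), Ciz1 (Fut8) and Slc2a1 (Rce1). These members did not differ between control regions at the threshold, and Gnal was close to background, so its r says little about Gnal mRNA.

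Whether loss of THAP1 changes the other dystonia genes was asked in each region. By limma, 0 of 10 probes passed an adjusted p of 0.05 in cerebellum (0.2% of all probes did), 0 of 10 in cortex (0.434%) and 0 of 10 in striatum (0.494%). At an unadjusted p under 0.05 there were 0 in cerebellum (5.06% of all probes), 2 in cortex (10.2%), Gch1 and Slc2a1, and 1 in striatum (7.04%), Tubb4a. The 10 probes had a median difference of -0.01 in cerebellum (0.00 over all probes), -0.13 in cortex (0.01 over all) and -0.01 in striatum (0.01 over all). In cortex 9 of the 10 probes lay below 0, and in cerebellum and striatum 5 of 10. Under median scaling the median of all probes itself moved to -0.11 in cerebellum, 0.12 in cortex and 0.07 in striatum, and 4 of the 9 lower cortex values turned above 0.

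The 95% intervals cover the spread between arrays on this scale, not what the offset takes from differences of dim probes. Over the 10 probes and 3 regions, the lowest limit was -0.75, for Gch1 in cortex, and the highest 0.47. A p that misses the threshold does not show that KO and control are alike.

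**Figure D3:**
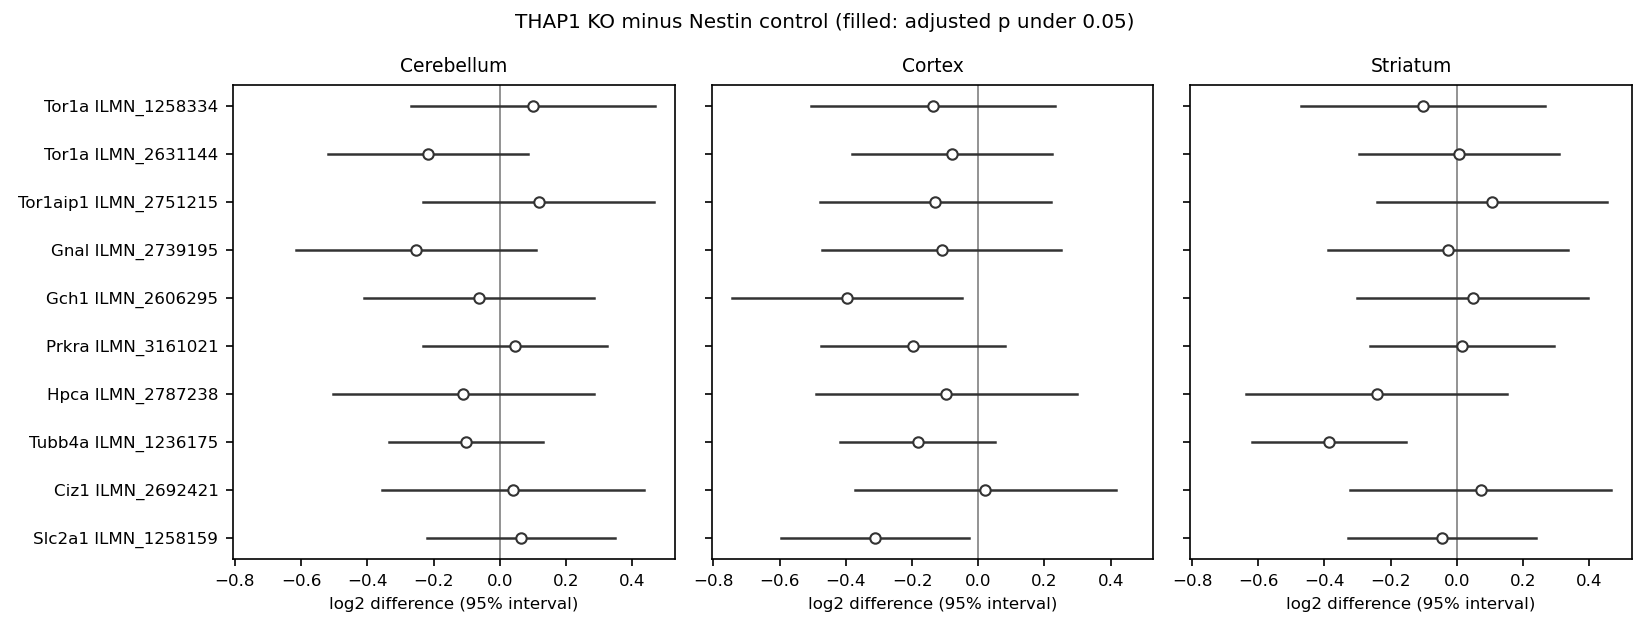
THAP1 KO minus Nestin control in log2 intensity for the 10 probes (points, with 95% intervals) in cerebellum, cortex and striatum. No point is filled, since none passed an adjusted p of 0.05, and the intervals of Gch1 and Slc2a1 in cortex and of Tubb4a in striatum lie wholly below 0.

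Tubb4a came nearest to a difference, in striatum. The KO arrays read 11.20, 11.20, 11.20 and 10.82, and the control arrays 11.58, 11.32, 11.62 and 11.45, so that all 4 KO arrays lay below all 4 control arrays, a separation that 3.61% of all probes showed in either direction. The means were 11.11 ± 0.193 in KO and 11.49 ± 0.139 in control striatum (SD, n = 4 each), with a difference of -0.39 (SE 0.11, 95% interval -0.62 to -0.15, 0.765-fold, adjusted p = 0.185). The raw means, before normalization, were 2350 in KO and 2911 in control. Without 1 array or under other processing the difference ran between -0.44 and -0.21 and its adjusted p between 0.128 and 0.944.

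In cortex Tubb4a read 11.59, 11.35, 11.64 and 11.34 on KO arrays and 11.53, 11.54, 11.93 and 11.64 on control arrays, which overlapped (-0.18, adjusted p = 0.625). In cerebellum it read 11.95, 11.92, 12.18 and 11.99 on KO arrays and 12.28, 11.88, 12.22 and 12.07 on control arrays, also with overlap (-0.10, adjusted p = 1.00). Averaged over the 3 regions the KO effect was -0.22 (SE 0.07, 0.856-fold, adjusted p = 0.0764), where 0 of 10 probes passed and 1.95% of all probes did. Without cerebellum control 18 this mean passed (-0.25, adjusted p = 0.0410). Where arrays of different regions come from the same mouse and resemble each other, p-values of such means are too small, while tests between regions lose power.

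Markers of oligodendrocytes and myelin moved in the same samples. Of 12 such genes 10 were tested, and their mean log2 intensity was 10.14 to 10.99 on KO and 11.11 to 11.48 on control striatum arrays, with 9 of the 10 lower in KO and 8 passing. In cortex the mean was 10.01 to 10.60 on KO and 10.82 to 11.14 on control arrays, with 10 of 10 lower and 6 passing, and in cerebellum 10.77 to 11.06 on KO and 10.94 to 11.14 on control arrays, with 10 of 10 lower and 0 passing. Striatum KO 8, the array with the lowest Tubb4a of its group, also had the lowest marker mean. The median difference of 3 precursor markers in striatum was -0.14, and 0 of them passed. The part of these markers in the Tubb4a values was not tested.

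**Figure D4:**
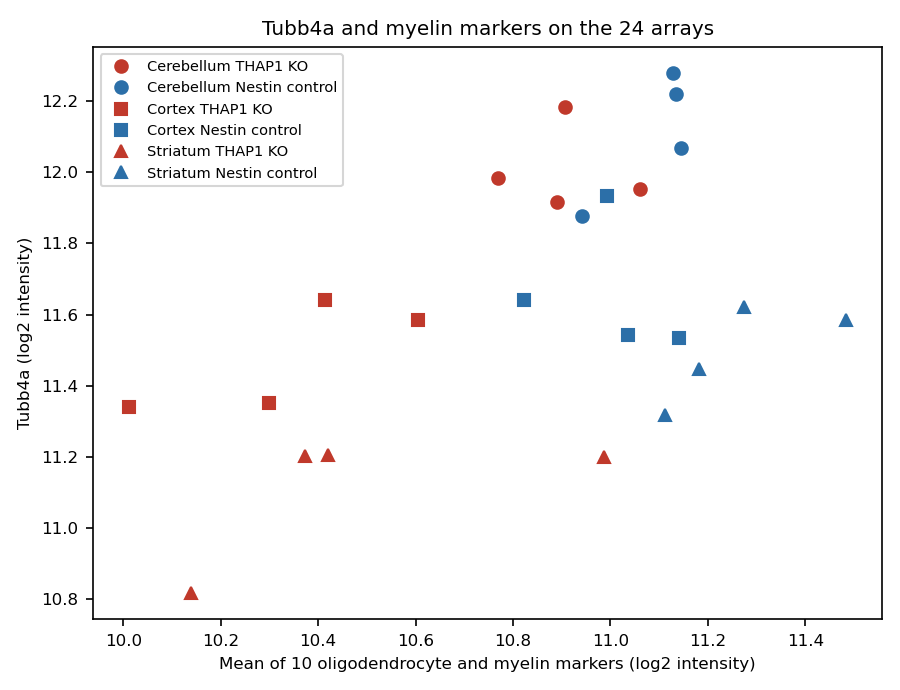
Tubb4a log2 intensity (vertical) against the mean log2 intensity of 10 oligodendrocyte and myelin markers (horizontal) on the 24 arrays, KO in red and control in blue, with circles for cerebellum, squares for cortex and triangles for striatum. The 4 striatum KO arrays lie lower on both axes than the 4 striatum control arrays, and the 8 cerebellum arrays lie between 11.88 and 12.28 on the Tubb4a axis.

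Like Tubb4a, the other tubulins, the cofactors and Mapt did not pass in any region, with 0 of 23 probes by limma in each. At an unadjusted p under 0.05 there were 2, 1 and 0 of these probes in cerebellum, cortex and striatum. The smallest p was that of Mapt, the microtubule-associated protein tau, in cortex, on a dim probe that averaged 5.03 in KO and 5.71 in control (-0.69, adjusted p = 0.412).

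Gch1 had the largest difference in cortex. KO arrays read 5.31, 4.87, 5.50 and 5.35, and control arrays 5.50, 5.68, 5.50 and 5.92. Most KO arrays were low, yet the highest KO array reached the lowest control arrays, so the groups overlapped, and 1 KO array was not above background. The difference was -0.40 (SE 0.17, 95% interval -0.75 to -0.05, 0.760-fold, adjusted p = 0.407), and it ran between -0.59 and -0.15 under other processing. Raw means were 120 in KO and 119 in control cortex. In cerebellum Gch1 averaged 5.66 ± 0.348 in KO and 5.72 ± 0.211 in control (-0.06, adjusted p = 1.00), and in striatum 5.53 ± 0.0668 in KO and 5.49 ± 0.0846 in control (0.05, adjusted p = 0.986; SD, n = 4 each).

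In the cortex, 13 of 13 probes of tetrahydrobiopterin and monoamine metabolism were below 0, with a median of -0.13. Of these, 4 had an unadjusted p under 0.05, where 10.2% of all probes did, and 0 passed by limma in any region. The list as a whole was not recomputed under median scaling, which moved the median of all cortex probes from 0.01 to 0.12. Tph2 had the smallest p, at 5.24 in KO and 5.98 in control cortex (-0.74, adjusted p = 0.0923), and it passed without cortex control 9 (-0.92, adjusted p = 0.0374). Markers of monoaminergic neurons, 4 of which were tested and some of which are the same genes, averaged 5.17 to 5.46 on KO and 5.51 to 5.79 on control cortex arrays, with 4 of 4 lower and 0 passing. The cell bodies that make these transmitters lie mostly outside the dissected regions. Their part in the Gch1 values was not tested.

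Slc2a1 read 10.19, 9.90, 10.34 and 10.41 on KO cortex arrays and 10.44, 10.61, 10.64 and 10.40 on control cortex arrays. Only the highest KO array reached the lowest control array, so the groups just overlapped. The difference was -0.31 (SE 0.14, 95% interval -0.60 to -0.03, 0.806-fold, adjusted p = 0.436), and it was -0.16 under median scaling (adjusted p = 0.789). Raw means lay the other way, at 1575 in KO and 1508 in control. In cerebellum Slc2a1 averaged 10.71 ± 0.196 in KO and 10.65 ± 0.129 in control (0.07, adjusted p = 1.00), and in striatum 10.45 ± 0.350 in KO and 10.49 ± 0.157 in control (-0.04, adjusted p = 0.985; SD, n = 4 each).

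Endothelial markers, of which 7 of 12 were tested and Cldn5, Cdh5, Abcb1a, Slc16a1 and Kdr were not, averaged 7.60 to 7.93 on KO and 7.67 to 7.95 on control cortex arrays, with 5 of 7 lower and 0 passing. Choroid plexus markers were at 6.30 to 8.26 on KO and 8.04 to 8.75 on control cortex arrays, with 4 of 4 lower and 0 passing. Blood markers were at 6.63 to 7.99 on KO and 7.08 to 9.14 on control cortex arrays, with 2 of 2 lower, a median difference of -0.99 and 0 passing. The part of these markers in the Slc2a1 values was not tested. Among the 30 probes of glucose transport and glycolysis 1 passed in cerebellum and 0 in the other regions. Slc2a13, the inositol transporter, averaged 9.76 ± 0.358 in KO and 9.02 ± 0.137 in control cerebellum (0.73, SE 0.14, adjusted p = 0.00852; SD, n = 4 each). Its groups did not overlap, which 2.61% of all probes showed there in either direction. It no longer passed under median scaling (0.58, adjusted p = 0.511), with the cerebellum arrays alone (adjusted p = 0.252) or without cerebellum KO 22 (0.58, adjusted p = 0.0637).

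For Tor1a, the classical dystonia gene, the probes had differences of either sign. In cerebellum ILMN_2631144 read 6.73, 7.21, 7.06 and 6.54 on KO arrays and 7.05, 6.89, 7.28 and 7.18 on control arrays (-0.22, 95% interval -0.52 to 0.08, adjusted p = 1.00), while ILMN_1258334 read 6.19, 6.34, 6.79 and 6.85 on KO arrays and 6.55, 6.11, 6.68 and 6.44 on control arrays (0.10, -0.27 to 0.47, adjusted p = 1.00). KO and control overlapped on both probes, whose differences had opposite signs. In cortex the differences were -0.08 and -0.14, and in striatum 0.01 and -0.10 (adjusted p 0.867 to 0.997 over both regions). Tor1aip1 averaged 6.86 ± 0.224 in KO and 6.74 ± 0.154 in control cerebellum, 6.45 ± 0.166 in KO and 6.58 ± 0.361 in control cortex, and 6.64 ± 0.204 in KO and 6.54 ± 0.199 in control striatum (SD, n = 4 each; differences 0.12, -0.13 and 0.11, adjusted p 0.867 to 1.00).

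Torsin and nuclear envelope genes also held no call, with 0 of 23 probes by limma in each region and 0, 3 and 1 at an unadjusted p under 0.05 in cerebellum, cortex and striatum. The smallest p belonged to Lmna, which encodes lamins A and C, at 7.55 in KO and 8.02 in control striatum (-0.47, adjusted p = 0.377).

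Gnal read 4.63, 4.67, 4.70 and 4.70 on KO and 4.92, 5.20, 4.84 and 4.75 on control cerebellum arrays. All KO arrays lay below all control arrays, which 2.61% of all probes showed in either direction, but 0 KO and 2 control arrays were above background, so no fold is given (adjusted p = 1.00). It averaged 4.97 ± 0.149 in KO and 5.08 ± 0.463 in control cortex (SD, n = 4 each, adjusted p = 0.901), detected on 3 and 2 arrays, and in striatum was detected on 1 KO and 0 control arrays. Of the 22 probes of Golf and cyclic AMP signalling, 0 passed in any region by limma, with 2, 3 and 2 at an unadjusted p under 0.05 in cerebellum, cortex and striatum. Their differences were above 0 for 5, 4 and 3 of the 22 in these regions, with medians of -0.09, -0.11 and -0.12. Of 5 striatal markers tested, 5 were lower in KO striatum and 4 in KO cortex, 0 passed, and their part in these values was not tested.

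Drd2, the dopamine D2 receptor of striatal output neurons, averaged 6.80 ± 0.238 in KO and 7.36 ± 0.128 in control cortex (SD, n = 4 each; -0.56, adjusted p = 0.181). Its difference was -0.52 in striatum (8.11 in KO, 8.63 in control, adjusted p = 0.348) and -0.33 in cerebellum (4.89 in KO, 5.21 in control, adjusted p = 1.00). Its mean over the 3 regions passed (-0.47, SE 0.10, adjusted p = 0.0106), though not under median scaling (-0.37, adjusted p = 0.222). In cerebellum, which enters this mean, Drd2 was dim and detected on 2 of 4 KO and 4 of 4 control arrays. If regions share mice whose arrays resemble each other, p-values of such means are too small. Drd2, Lama2 and Slc2a13 were the only probes of the 10 related lists whose mean effect passed, that of Slc2a13 also not under median scaling (0.40, adjusted p = 0.0515). They are named for that mean after their values were seen.

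Prkra averaged 8.89 ± 0.257 in KO and 8.85 ± 0.168 in control cerebellum, 8.15 ± 0.170 in KO and 8.35 ± 0.189 in control cortex, and 8.90 ± 0.135 in KO and 8.88 ± 0.186 in control striatum (SD, n = 4 each). The differences were 0.05, -0.20 and 0.02 (adjusted p 0.671 to 1.00), so the low cortex level of controls was also there in KO. Of 18 probes of PACT partners 0 passed in any region by limma, with 0, 2 and 1 at an unadjusted p under 0.05 in cerebellum, cortex and striatum. Ago3 had the smallest p, at 5.51 in KO and 6.00 in control striatum (-0.49, adjusted p = 0.316).

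Hpca was low in cerebellum in KO brains too. KO arrays read 10.33, 9.74, 10.34 and 10.50 in cerebellum, 12.57, 12.47, 12.62 and 12.79 in cortex, and 12.07, 12.56, 12.46 and 11.49 in striatum. Every cerebellum KO array lay below every cortex and striatum KO array, and all overlapped the control arrays of their region. KO minus control was -0.11 in cerebellum (95% interval -0.51 to 0.28), -0.10 in cortex (-0.49 to 0.30) and -0.24 in striatum (-0.64 to 0.15), with adjusted p 0.909 to 1.00. With an array left out the striatum value ran between -0.38 and -0.02. Of 16 probes of other calcium sensors 0 passed in any region by limma, with 1, 0 and 1 at an unadjusted p under 0.05 in cerebellum, cortex and striatum, and the smallest p was that of Hpcal1 in cerebellum, at 9.39 in KO and 9.86 in control (-0.46, adjusted p = 0.823).

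Ciz1 averaged 7.51 ± 0.347 in KO and 7.46 ± 0.180 in control cerebellum, 7.10 ± 0.302 in KO and 7.08 ± 0.281 in control cortex, and 7.17 ± 0.174 in KO and 7.10 ± 0.384 in control striatum (SD, n = 4 each). Its differences of 0.04, 0.02 and 0.07 were small against the spread between arrays (adjusted p 0.982 to 1.00). Of 16 probes of replication factors and CIZ1 partners 0 passed in any region by limma, with 0, 0 and 2 at an unadjusted p under 0.05 in cerebellum, cortex and striatum. Mcm2, a subunit of the replicative helicase, had the smallest p, at 4.61 in KO and 5.14 in control striatum, near background (-0.52, adjusted p = 0.465). Its groups did not overlap, which 3.61% of all probes showed there in either direction.

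Sgce could not be compared, and in cerebellum 1 of 15 probes of genes listed with its complex passed. Lama2, the laminin alpha chain to which dystroglycan binds, averaged 7.14 ± 0.417 in KO and 6.02 ± 0.216 in control cerebellum (1.11, SE 0.21, adjusted p = 0.00938; SD, n = 4 each). Its groups did not overlap, which 2.61% of all probes showed there in either direction. It no longer passed under median scaling (0.96, adjusted p = 0.0872), with the cerebellum arrays alone (adjusted p = 0.115), or without cerebellum KO 21 (0.98, adjusted p = 0.0661), KO 24 (1.00, adjusted p = 0.0584) or control 20 (1.02, adjusted p = 0.0557). The cortex difference of 0.62 (adjusted p = 0.216) and the striatum difference of 0.39 (adjusted p = 0.766) did not pass, and its mean over regions passed (0.71, adjusted p = 0.000740). Lama2 was dim outside cerebellum, detected on 1 of 4 control cortex arrays and 3 of 4 control striatum arrays.

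A list of further genes linked to dystonia or to combined movement disorders held 22 genes on the array, and 20 of them, with 35 probes, were tested. In KO against control 0 of 35 probes passed in any region by limma, with 1, 3 and 3 at an unadjusted p under 0.05 in cerebellum, cortex and striatum. The smallest p was that of Pnkd, the gene of paroxysmal nonkinesigenic dyskinesia, on a probe near background that averaged 4.71 in KO and 5.41 in control striatum (-0.70, adjusted p = 0.152). Its groups did not overlap, which 3.61% of all probes showed there in either direction. In control brains 4 of the 35 were higher and 11 lower in cerebellum than in cortex, and 2 were higher and 14 lower in cerebellum than in striatum. Drd2 averaged 5.21 in cerebellum and 8.63 in striatum (-3.41, adjusted p = 9.48e-16), and Ap1s1, a subunit of the AP-1 adaptor, was lower in cerebellum on its 3 probes, with differences of -1.61, -1.72 and -1.38 from cortex and of -1.51, -1.28 and -1.53 from striatum.

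Differences of the KO effect between regions were tested for each probe. By limma, 0 of 10 passed for cerebellum against cortex (0.00667% of all probes), cerebellum against striatum (0%) and cortex against striatum (0%), and 0 of 10 had an unadjusted p under 0.05 in any of them, where 3.94%, 3.61% and 4.39% of all probes did. The smallest unadjusted p-values were 0.0655 for Slc2a1, whose KO effect was 0.38 higher in cerebellum than in cortex, 0.0751 for Gch1, whose KO effect was lower in cortex than in striatum by -0.44, and 0.0867 for Tubb4a, whose KO effect was 0.29 higher in cerebellum than in striatum. Under other processing these differences ran between 0.09 and 0.40 for Slc2a1, between -0.66 and -0.17 for Gch1 and between 0.003 and 0.31 for Tubb4a, the lowest Tubb4a value under median scaling.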

How the data were processed

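Per the file headers, the deposited raw table holds a linear bead intensity for each probe and array without normalization, and a detection p-value against the array's negative controls. The submitters' processing notes name BeadStudio, with no version. The authors' processed table holds intensity whose background step and normalization are unknown, with column medians of 11.6 and values down to -19.8. It served as an alternative, floored at 8. Probes were named from the platform's gene table (23978 of 25697 with 1 gene, 1719 with none).

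Raw values were background-corrected with limma 3.58.1 (R 4.3.3) from the detection p-values, with an offset of 16, taken to log2 and quantile normalized. A mean for each of the 6 groups was estimated across the 24 arrays by lmFit, then eBayes with an intensity trend (18 residual and 10.1 prior degrees of freedom). Tests were two-sided, with Benjamini-Hochberg adjustment over 14994 probes and a threshold of 0.05. The fit was tested on simulated data. Where a probe was above background on no array of a group, a bound is given against the lowest detected signal, or the probe's own where higher, of each such array.

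The members and gene lists were chosen with earlier results of these data known. All member probes are described. From each related list, up to 4 called probes with the smallest adjusted p are named for KO and for regions, or the probe with the smallest p where none passed for KO. Patterns alike are the 3 highest Pearson correlations. Sensitivity alternatives are given in the closing section.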

Additional observations from a re-analysis of the deposited data

Results flagged for a closer look

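In 60 groups of 4 arrays, an array was singled out when its distance to the nearest other array took a larger share of the whole range of its group than Dixon's 95% critical value allows, which chance alone gives in about 1 of 20 groups. There were 2 such values, both on striatum KO 8. For Tubb4a this array read 10.82 while the other 3 striatum KO arrays all read 11.20, a gap of 0.990 of the range. For Gnal ILMN_2739195 it read 5.21, above the others at 4.61 to 4.70, a gap of 0.849 of the range, and it was the only striatum array on which this probe was above background. The same array had the lowest Hpca of its group (11.49) and the lowest mean of the myelin markers (10.14).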

How the results depend on the processing

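Alternatives were median scaling, the authors' values, raw signal without background correction, no filter or a stricter one, no intensity trend, array weights, gene means, the 8 compared arrays alone, and each array left out. The slide as a block was not run, since the columns give no slide. No paired analysis was possible because replicate numbers are not shared between groups. Under alternatives other than a left-out array, 622 of 627 single member values stayed on their side of the threshold. Values that changed sign count as staying, and most values were far from the threshold. Calls that could be lost stood only between control regions, where 4, 2 and 2 probes passed. The 2 lost calls and 1 of 3 gained ones came under median scaling and are given above. Tor1a ILMN_1258334 in cortex over striatum passed with array weights (0.59, adjusted p = 0.0110) and without cortex control 10 (0.53, adjusted p = 0.0473) or striatum control 1 (0.56, adjusted p = 0.0274), and Hpca in cortex over striatum with those 8 arrays alone (0.32, adjusted p = 0.0475). With an array left out, 764 of 768 stayed. The count of members passing was 0 between KO and control in each region under every alternative run, and 0 or 1 for the mean over regions with an array left out. In the related lists, 45 of 53 named values passed, 6 calls ended under other processing and 4 with an array left out.

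Effect differences between regions were recomputed for the 3 named values only. With other processing 19 single values changed sign, 13 of them under median scaling. They were at most 0.14 in size in the reported fit, and none passed in either setting. Under median scaling KO minus control in cerebellum became -0.060 for Tor1a ILMN_1258334, -0.046 for Tor1aip1, -0.12 for Prkra, -0.14 for Ciz1 and -0.067 for Slc2a1. In cortex it became 0.035 and 0.11 for the Tor1a probes ILMN_1258334 and ILMN_2631144, 0.033 for Tor1aip1 and 0.0013 for Hpca, and in striatum 0.025 for Gnal and 0.092 for Slc2a1. Control cerebellum minus striatum became 0.091 for Prkra, and control cortex minus striatum -0.067 for Tor1aip1. Array weights gave 0.0075 for Gch1 in cerebellum, -0.014 for Ciz1 in cortex, and in striatum 0.0070 for Tor1a ILMN_1258334, -0.012 for Prkra and 0.0056 for Slc2a1, and the mean of both Tor1a probes gave -0.048 in striatum.

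With an array left out, KO minus control in cerebellum ran over -0.010 to 0.22 for Tor1a ILMN_1258334, -0.23 to 0.029 for Gch1, -0.018 to 0.17 for Prkra, -0.29 to 0.068 for Hpca and -0.070 to 0.14 for Ciz1. In cortex it ran over -0.27 to 0.097 for Gnal and -0.092 to 0.14 for Ciz1. In striatum it ran over -0.22 to 0.012 for Tor1a ILMN_1258334, -0.066 to 0.068 for ILMN_2631144, -0.17 to 0.037 for Gnal, -0.045 to 0.089 for Prkra, -0.069 to 0.23 for Ciz1 and -0.16 to 0.074 for Slc2a1, and for the mean effect over -0.014 to 0.071 for Tor1aip1 and -0.0020 to 0.098 for Ciz1. For control cerebellum minus cortex the ranges were -0.31 to 0.053 for Gnal and -0.024 to 0.16 for Gch1, for cerebellum minus striatum -0.047 to 0.18 for Tor1a ILMN_1258334 and -0.095 to 0.038 for Prkra, and for cortex minus striatum -0.079 to 0.18 for Tor1aip1, -0.16 to 0.14 for Ciz1 and -0.029 to 0.088 for Slc2a1.

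Counts over all probes moved more. KO against control called 30 in cerebellum, 9 with those 8 arrays alone. In cortex it called 65, with 33 under median scaling, 43 without the filter, 251 with array weights and 17 to 45 with an array left out. In striatum it called 74, with 37 under median scaling, 19 with the 8 arrays alone and 38 to 121 with an array left out. The mean effect called 293, with 126 under median scaling and 214 to 351 with an array left out. The difference of effects between cerebellum and cortex called 1, and 0 under median scaling, without the filter or without the trend (0 to 1 with an array left out). That between cerebellum and striatum called 0, and 1 with gene means (0 to 12), and that between cortex and striatum 0, and 1 with the authors' values, without the trend or with gene means (0 to 1). The cause of these shifts was not tested. Gnal, Gch1 and the other probes near background are limited by signal over background.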
